A study of Homo sapiens with 6 samples.

Results

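SKOV-3 is a human cell line established from an ovarian cancer, and the siCtrl group of a study in it is described here as a baseline transcriptome. Cells of this group received a scramble siRNA, and total RNA was taken 48 h after transfection and hybridised to Illumina bead arrays. By their labels, 3 of the 6 arrays of the series belong to it (siCtrl 1, siCtrl 2 and siCtrl 3), and the remaining 3 arrays, from cells given siRNA against the histone acetyltransferase HBO1, are not compared with it. All 3 arrays come from transfected cells, so the values describe cells that carry a control siRNA and not untouched cells. Nothing in the labels says that the 3 arrays came from separate cultures, so the spread between them may be technical. With 1 group there is no contrast and no test, and every statement is a level, a count or a range.

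SKOV-3 is known as a line with extra copies of ERBB2, the gene of a receptor tyrosine kinase, and with a mesenchymal shape in culture. Carcinomas filed as ovarian are mostly traced to epithelium of the Mullerian duct, which carries PAX8, a transcription factor of that duct. Epithelial cells are held together by E-cadherin and claudins and built on keratins, whereas mesenchymal cells use N-cadherin and vimentin. Cultured cells also run stress programmes, among them the ATF4 response to amino acid shortage and unfolded protein and the NF-kB response that drives cytokine genes.

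The table lists exactly 1 gene symbol for 30110 of 47314 probes, which stand for 20043 genes. The signal is the mean bead brightness of a probe on a linear scale, and the detection p-value sets it against the negative control beads of the same array. A gene was called detected when at least 1 of its probes had a detection p under 0.01 on all 3 arrays, and its level is the signal of its brightest probe. Signal also depends on how well a probe binds, so an order of genes by signal is an order of probes and not of transcript numbers. Mean signal over all probes was 713, 730 and 674 on siCtrl 1, 2 and 3, and 17704, 17820 and 17540 probes had a detection p under 0.01. The dimmest detected probe read 179, 184 and 176.

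One array stood apart. Across 10194 genes, log2 values correlated at 0.980 between siCtrl 1 and siCtrl 2, at 0.977 between siCtrl 1 and siCtrl 3 and at 0.994 between siCtrl 2 and siCtrl 3. These are correlations across genes, which are not independent replicates. The SD of the log2 difference was 0.41 and 0.43 for the pairs with siCtrl 1, and 0.23 for siCtrl 2 with siCtrl 3. The spread of the most variable and the steadiest genes, of the level deciles and of the gene lists is therefore also given without siCtrl 1.

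Of the 20043 genes, 10198 were detected on all 3 arrays (50.9%), 1101 on some of them (5.49%) and 8744 on none (43.6%). The call is a threshold on a continuous measure. The 20 genes just inside it had a largest p of 0.00909 and a median signal of 188, and the 32 genes just outside had 0.0104 and 189. Detected genes had a median signal of 747, with quartiles of 335 and 1943, and they ran between 180 and 19273. Signals over 10000 were read for 314 genes and signals under 300 for 2137 genes. Among the 6691 genes with several probes, 4084 had a detected probe, and in 2237 of these only some of the probes were detected.

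Protein-coding genes were detected most often among the large classes, at 9791 of 17732 (55.2%). Among small nucleolar RNAs, which guide the modification of ribosomal RNA, 92 of 279 were detected (33.0%). The shares were 144 of 518 for transcribed pseudogenes (27.8%), 117 of 756 for long non-coding RNAs (15.5%) and 17 of 560 for microRNA genes (3.04%). By chromosome, protein-coding genes were detected most often on chromosome 15 (61.7%) and least often on the X chromosome (43.6%) and on chromosome 11 (47.1%). Of the 368 olfactory receptor genes on the array, which serve smell, 4 were detected, and of 35 beta defensins and 27 taste receptors 0 were. With 1 of 80 keratin-associated proteins of hair, 5 of 510 such genes passed (0.980%), against 50.9% of all genes.

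Among named genes, the brightest probe belonged to EEF1A1, the elongation factor that brings tRNA to the ribosome, with 19049, 20045 and 18724 on siCtrl 1, 2 and 3. The next 24 by mean signal were ACTG1, FTL, RPL41, TUBA1C, RPL13AP5, LDHA, TXN, TPT1, S100A4, COX7C, ATP5F1EP2, RPL38, RPL9, RPS25, RPS6, SLC25A5, ACTB, ATP5F1A, MT2A, TMSB4X, PPIAL4A, RPS12, MACROH2A1 and UBB. Among them are genes of the cytoskeleton (ACTG1, ACTB, TUBA1C, TMSB4X), of the ribosome, of mitochondrial energy supply (COX7C, ATP5F1A, SLC25A5), of iron storage (FTL) and of redox control (TXN), and others fall in none of these groups, such as the metallothionein MT2A, the histone variant MACROH2A1 and the ubiquitin gene UBB. Among these 25 genes were 6 ribosomal protein genes and 2 pseudogenes, RPL13AP5 and ATP5F1EP2, whose probes may also bind the near-identical parent transcripts. The same holds for PPIAL4A, a copy of the cyclophilin gene PPIA. PPIAL4A read 16706, 16240 and 15932, and the probe of PPIA itself read 278, 306 and 261. The 25 brightest genes had a median range between arrays of 0.08 on the log2 scale, and they held 2.14% of the summed signal of all genes. Among the 100 brightest, 28 were ribosomal protein genes.

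Machinery that every dividing cell needs was detected almost throughout. All 33 mitosis genes, all 22 oxidative phosphorylation genes and all 15 common reference genes passed, against 50.9% of all genes. So did 67 of 68 cytosolic ribosomal protein genes (98.5%) and 26 of 28 genes of replication licensing and DNA synthesis (92.9%). CDC20, the activator of the anaphase-promoting complex, read 14876, 17005 and 15976. ORC6, a subunit of the origin recognition complex, read 14984, 15281 and 15111. UBE2C, the ubiquitin-conjugating enzyme of mitotic exit, read 9090, 10165 and 9862. The exceptions limit what a missing call means: RPL10, a ribosomal protein, read 142, 142 and 143 and was detected on 0 of 3 arrays. NPM1, a nucleolar protein, read 138, 133 and 153, and PDIA3, a disulfide isomerase of the endoplasmic reticulum, read 155, 160 and 142. These genes are used by practically every cell, so a gene whose probes were not detected is not shown to be silent.

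Across 39 lists of lineage markers, 116 of 546 distinct genes were detected (21.2%), against 50.9% of all genes. The mesenchymal list stood at the top with 21 of 27 genes (77.8%), followed by the simple epithelium keratins with 5 of 7. At the bottom, 0 of 16 intestinal, 0 of 9 stomach and 0 of 14 eye genes passed. The count of every list below stands beside the same 50.9% of all genes.

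**Figure D1:**
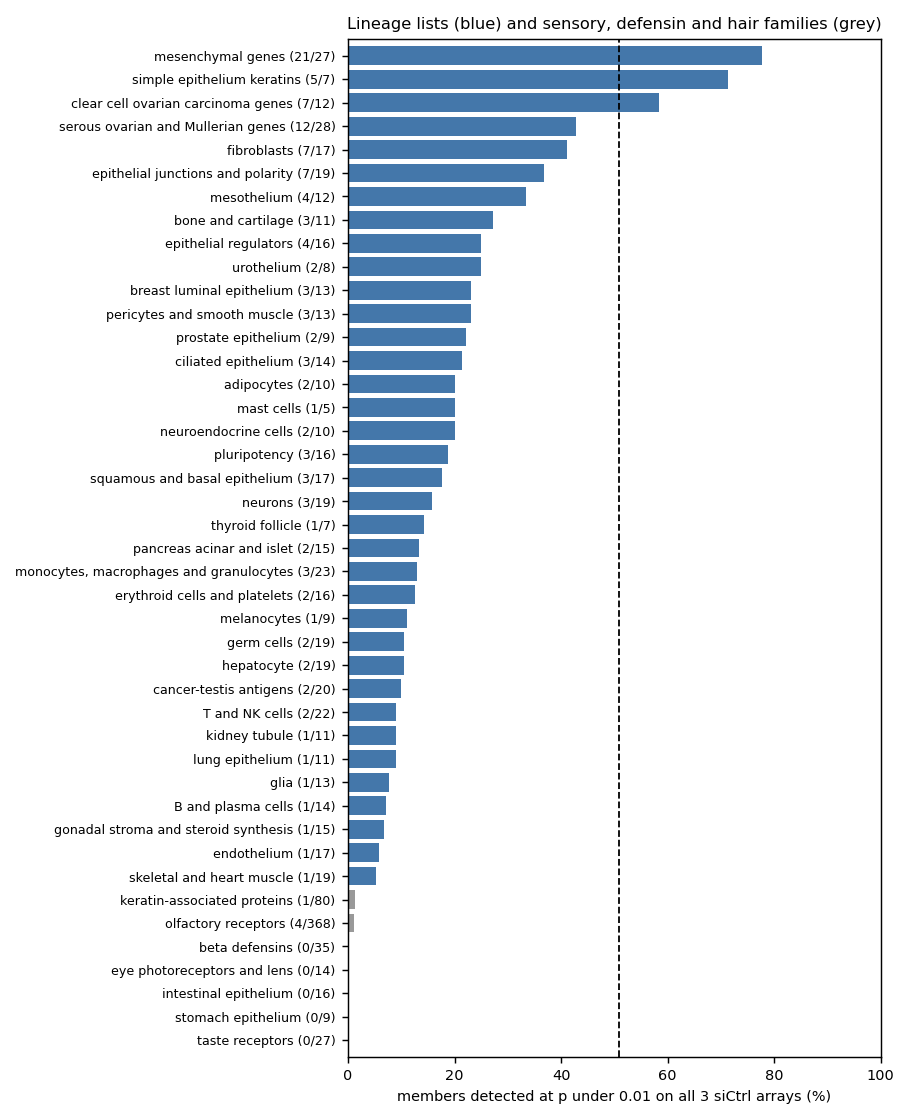
Share of the genes of each lineage list (blue) and each sensory, defensin or hair family (grey) detected at p under 0.01 on all 3 siCtrl arrays, in percent, with detected and measured genes in brackets. The dashed line is the share among all genes (50.9%), and the mesenchymal list (21 of 27), the simple epithelium keratins (5 of 7) and the clear cell list (7 of 12) lie above it.

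Mesenchymal genes included some of the brightest probes. Vimentin (VIM), the intermediate filament of mesenchymal cells, read 15148, 16015 and 16332 on siCtrl 1, 2 and 3. S100A4, a calcium-binding protein of motile cells, read 16244, 18129 and 16649, LGALS1 (galectin-1) read 15857, 14028 and 16911, and CAV1, the scaffold of caveolae, read 14948, 15278 and 14256. N-cadherin (CDH2) read 4850, 7796 and 6762, lowest on siCtrl 1. On 0 of 3 arrays were CDH11, FN1, SNAI1 and PRRX1 detected, which are a mesenchymal cadherin, fibronectin and transcription factors. The 21 detected genes had a median range of 0.33, beside 0.31 over all detected genes. Of the 21, 0 spanned 2-fold, against 3.99% of all detected genes, which is near that share and does not show them to be steadier. Without siCtrl 1 the medians were 0.16 and 0.14.

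Epithelial genes were detected in part. Of 19 genes of junctions and polarity 7 passed (36.8%), and of 16 epithelial regulators 4 passed (25%), against 50.9% of all genes. Desmoglein-2 (DSG2), a desmosomal cadherin, read 7265, 6875 and 6159, TJP1 (a tight junction scaffold) read 1852, 2084 and 1621, and desmoplakin (DSP) read 825, 1070 and 830. EPCAM, an epithelial adhesion molecule, read 529, 438 and 346. E-cadherin (CDH1) and the tight junction genes CLDN4, CLDN7 and OCLN were detected on 0 of 3 arrays, as were the epithelial splicing regulators ESRP1 and ESRP2 and the transcription factors GRHL1 and GRHL2. Markers from both the epithelial and the mesenchymal list were thus read in the same RNA, and bulk RNA cannot tell cells that hold both from a mixture of cells.

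Simple keratins split by how steady they were. KRT8 read 2959, 2965 and 2865 and KRT80 read 4482, 4972 and 3894, with ranges of 0.12 and 0.21. KRT7 read 1134, 570 and 354, a range of 1.98, and KRT19 read 2372, 1095 and 895, a range of 1.37. KRT18, the partner of KRT8 in filaments, read 823, 552 and 482. KRT7, KRT18 and KRT19 were all highest on siCtrl 1. Without it the ranges were 0.12 for KRT8, 0.20 for KRT80, 0.74 for KRT7 and 0.12 for KRT19, so KRT7 alone of these 4 kept a range over 0.5. The squamous keratin KRT5 was detected on 0 of 3 arrays and KRT14, KRT15 and KRT16 on 1 of 3.

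Of 28 genes tied to serous ovarian carcinoma or the Mullerian duct, 12 were detected (42.9%, against 50.9% of all genes). PAX8 read 1002, 1041 and 957, a range of 0.09, and MECOM, a zinc finger factor, read 3385, 3750 and 3606. Of the probes of PAX8 2 of 3 were detected, and of those of MECOM 1 of 3. CD24, a surface glycoprotein, read 9234, 13128 and 12294. SOX17, a partner of PAX8 in this lineage, read 391, 364 and 312, and the folate receptor FOLR1 read 329, 325 and 257. Mesothelin (MSLN), a surface protein of mesothelium and of many ovarian carcinomas, read 857, 610 and 535. MUC16, which carries the CA125 epitope, and WFDC2, which encodes HE4, were detected on 0 of 3 arrays, and so was EMX2. WT1, a marker of serous tumours and mesothelium, passed on 2 of 3 arrays with 205, 184 and 181. LAMA5, a basement membrane laminin, read 3193, 1379 and 1135 and was the most uneven of the 4 brightest, with a range of 1.43, and of 0.10 without siCtrl 1.

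Of 12 genes tied to clear cell ovarian carcinoma, 7 were detected (58.3%, near the 50.9% of all genes). The brightest were SOD2 (mitochondrial superoxide dismutase) with 3465, 2416 and 2594, GLRX (glutaredoxin) with 2372, 1974 and 1906 and TFPI2 (a protease inhibitor) with 2246, 1307 and 1328. ARID1A, a chromatin remodeller often mutated in that tumour, read 1333, 1841 and 1261. NAPSA, the protease used as its marker in tissue, was detected on 0 of 3 arrays, as were GPX3, UGT1A1 and LEFTY2. Of mesothelium 4 of 12 genes passed, and of gonadal stroma and steroid synthesis 1 of 15, AMH, with 210, 280 and 237.

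Markers of other tissues were mostly undetected. Of hepatocytes 2 of 19 passed, of pancreas 2 of 15, of lung 1 of 11, of kidney 1 of 11, of skeletal and heart muscle 1 of 19 and of glia 1 of 13. Several of those that passed lay near the lower limit of detection, such as ALB (serum albumin) with 246, 263 and 243 and FOXE1 (a thyroid factor) with 201, 231 and 185. A few were bright: PPARG, a nuclear receptor shared by the urothelium and adipocyte lists, read 3120, 3003 and 2238. MBP, known from myelin, read 1589, 1280 and 1065, and TUBB3, a tubulin of neurons that many cancer lines also carry, read 2552, 2593 and 2235.

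Genes that define blood and vessel cells were at background. The pan-leukocyte phosphatase PTPRC and the endothelial adhesion molecule PECAM1 were detected on 0 of 3 arrays, and so were CD3D, CD3E, MS4A1, CDH5, VWF and HBB. Of T and NK cell genes 2 of 22 passed, of B and plasma cell genes 1 of 14, of monocyte, macrophage and granulocyte genes 3 of 23, and of endothelial genes 1 of 17. SDC1 (syndecan-1), listed for plasma cells and also made by epithelium, read 5630, 5188 and 4994. CD68, a lysosomal protein listed for macrophages, read 2123, 1983 and 2445. KIT, the stem cell factor receptor listed for mast cells, read 1094, 3384 and 2838, whereas the mast cell genes TPSAB1, CPA3, FCER1A and HDC were detected on 0 of 3 arrays.

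Of 17 fibroblast genes 7 were detected (41.2%, against 50.9% of all genes). COL5A1, a fibrillar collagen, read 7563, 9005 and 8563, and COL1A1, the main collagen of connective tissue, read 373, 1185 and 980, a range of 2.06 with the lowest value on siCtrl 1, and of 0.10 without it. COL3A1, DCN, LUM and PDGFRA, which define fibroblasts, were detected on 0 of 3 arrays. Of smooth muscle genes 3 of 13 passed, with the actin-binding TAGLN at 6092, 9233 and 6763 and ACTA2 at 384, 689 and 718.

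Germ cell and stem cell genes were sparse. Of 19 germ cell genes DMC1, a recombinase of meiosis, read 2585, 3460 and 2896, and ZP3, an egg coat protein, read 542, 581 and 544, and the remaining 17 did not pass. Of 16 pluripotency genes 3 passed: MYC, a growth regulator that many dividing cells use, read 3619, 2073 and 1162, the DNA methyltransferase DNMT3B read 608, 876 and 744, and KLF4 read 302, 262 and 243. POU5F1, NANOG, SOX2 and LIN28A were detected on 0 of 3 arrays. Of 20 cancer-testis antigens 2 passed: SPANXA1, on the X chromosome and one of several near-identical copies, read 3384, 5199 and 6468, and PRAME read 714, 912 and 907. MAGEA1, MAGEA3 and MAGEA4 were detected on 0 of 3 arrays.

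**Figure D2:**
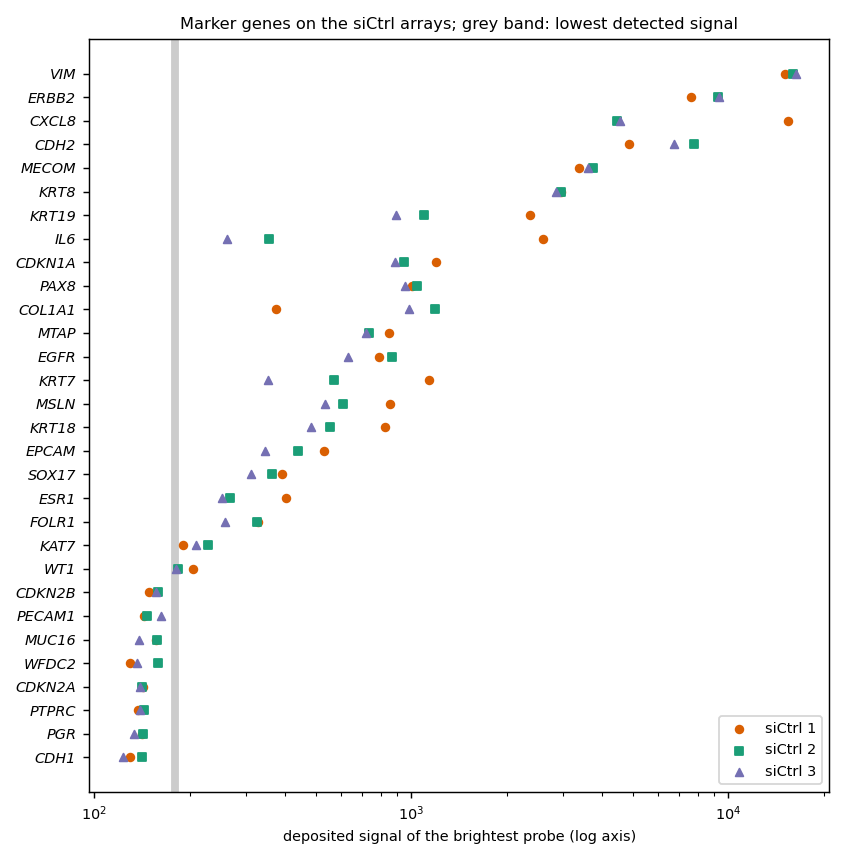
Deposited signal of the brightest probe of marker genes on siCtrl 1, 2 and 3 (log axis), with the grey band marking the lowest detected signals (176 to 184). VIM, ERBB2, CXCL8, CDH2 and MECOM lie at the bright end, MUC16, WFDC2, CDH1, PGR, PTPRC and PECAM1 lie below the band, and CXCL8, IL6, KRT7, KRT19 and COL1A1 show siCtrl 1 away from the other arrays.

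ERBB2 read 7641, 9251 and 9337 on siCtrl 1, 2 and 3 on its brightest probe, and 1 of its 3 probes was detected on all 3 arrays. Of the 26 other genes of 17q12 around it that the array measures, 17 were detected (65.4%, against 50.9% of all genes). PGAP3, which neighbours it, read 1869, 2537 and 2283, STARD3 read 997, 1135 and 1117, and MIEN1 on its other side read 378, 388 and 428. GRB7, an adaptor protein next in order, passed on 1 of 3 arrays with 177, 178 and 200. LASP1 and RPL19 further out read 14150, 14682 and 15869, and 14669, 15160 and 14641. Copy number was not measured. STARD3, MIEN1 and GRB7 were chosen after their values were seen.

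Of 34 receptor tyrosine kinases 13 were detected (38.2%, against 50.9% of all genes). AXL, the receptor of GAS6, read 9060, 12281 and 7419, PTK7 read 2098, 2262 and 2285, and EGFR read 789, 868 and 631. ERBB3 and ERBB4, the partners of ERBB2, were detected on 0 of 3 arrays, as were MST1R and IGF1R. Of 15 steroid and related nuclear receptors 9 passed (60%), led by RXRB with 2753, 3077 and 3230 and PPARG. The oestrogen receptor ESR1 read 403, 268 and 253, highest on siCtrl 1, and ESR2 and the progesterone receptor PGR were detected on 0 of 3 arrays. Of 18 integrins 13 passed (72.2%), led by ITGB1, the shared beta chain, with 15221, 14810 and 14992, and by ITGB5, ITGA3 and ITGAV.

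On 9p21, CDKN2A and CDKN2B, which encode inhibitors of the cell cycle kinases CDK4 and CDK6, were detected on 0 of 3 arrays. CDKN2A read 142, 141 and 139 and CDKN2B read 148, 158 and 157. Their neighbour MTAP, an enzyme of methionine salvage, was detected with 849, 735 and 719, and KLHL9 with 1647, 1732 and 1581. Among 13 genes of the region 7 passed (53.8%), near the 50.9% of all genes, and expression alone does not show whether DNA is present. Of 17 genes of the p53 pathway 11 passed (64.7%). CDKN1A, the p21 inhibitor, read 1195, 946 and 889, ZMAT3 read 4862, 6292 and 4795 and BAX read 1161, 1454 and 1190, while MDM2 and FAS were detected on 0 of 3 arrays.

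HOX genes, which encode position along the body axis, of the B cluster were mostly detected. HOXB2 read 4837, 6384 and 5490, HOXB8 read 3508, 6757 and 6246, HOXB5 read 4030, 4744 and 4367 and HOXB7 read 2628, 2920 and 2340. Of 11 measured HOXA and HOXB genes 8 passed (72.7%, against 50.9% of all genes), and HOXB1, HOXB9 and HOXB13 did not. Of 18 HOXC and HOXD genes 8 passed (44.4%), with a median signal among the detected of 228. The brightest of these was HOXD8 with 255, 312 and 319.

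Antigen presentation by class I was detected and by class II mostly not. Of 17 class I genes 13 passed (76.5%, against 50.9% of all genes), with B2M (the light chain) at 15018, 15290 and 14242, the peptidase ERAP2 at 5549, 6608 and 6331 and the immunoproteasome subunit PSMB10 at 3807, 4933 and 4481. HLA-C, a class I heavy chain, was detected on 0 of 3 arrays, and its sequence varies between people and cell lines. Of 10 class II genes 3 passed (30%), HLA-DRA with 559, 591 and 500, HLA-DMA and HLA-DMB. Of 28 interferon response genes 18 passed (64.3%), at a median signal among the detected of 590, led by IFI6 with 944, 1536 and 1081 and the factor IRF1 with 1345, 1130 and 891. KAT7, which encodes HBO1, the target of the siRNA given to the cells not described here, was detected on all 3 arrays with 190, 228 and 209, near the lower limit.

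The spread between arrays was measured as the range of a gene, its highest minus its lowest log2 value after normalization of the 3 arrays together. Over 10194 genes the median range was 0.31, a factor of 1.24, with quartiles of 0.19 and 0.48 and a 95th percentile of 0.92. A range of at least 1, a span of 2-fold, was reached by 407 genes (3.99%), and a range of at most 0.1 by 919 (9.02%). The range depended on level. Its median was 0.39 in the dimmest decile of detected genes and 0.19 in the brightest, and without siCtrl 1 it was 0.19 and 0.08. Among the 5097 brighter genes, those with a mean log2 value above the median of detected genes, 120 spanned 2-fold (2.35%) and 628 stayed within 0.1 (12.3%).

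**Figure D3:**
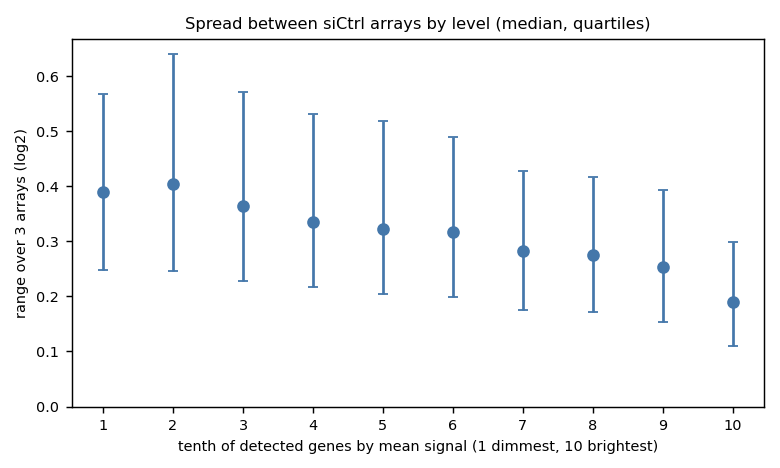
Range of log2 values between the 3 siCtrl arrays by decile of detected genes ordered by mean signal, with 1 the dimmest and 10 the brightest. Points are medians and bars run from the lower to the upper quartile: the median is 0.39 in the dimmest decile and 0.19 in the brightest.

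Most of the wide ranges came from siCtrl 1. In 359 of the 407 genes siCtrl 1 was the array apart from the other pair, against 19 for siCtrl 2 and 29 for siCtrl 3. The value on siCtrl 1 was the highest in 241 of them (2.36% of all genes), on siCtrl 2 in 89 (0.873%) and on siCtrl 3 in 77 (0.755%). It was the lowest on siCtrl 1 in 156 (1.53%), on siCtrl 2 in 94 (0.922%) and on siCtrl 3 in 157 (1.54%). Over all 10194 genes, whatever their range, the highest value fell on siCtrl 1 in 36.5%, on siCtrl 2 in 30.6% and on siCtrl 3 in 32.9%, and the lowest in 43.1%, 25.6% and 31.3%. When siCtrl 1 was left out and the remaining 2 arrays were normalized again, 15 genes spanned 2-fold, although a range over 2 arrays is also smaller by construction. Leaving out siCtrl 2 gave 325 such genes and leaving out siCtrl 3 gave 294. A second probe lent a check for 88 of the 407 genes: of their 100 other detected probes, 75 were highest on the same array, 78 were lowest on the same array and 63 spanned 2-fold as well. The cause of the difference between siCtrl 1 and the other arrays was not tested.

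Among the brighter genes, the 20 with the largest range were CGB8, CXCL2, LAMB3, TGM2, CLDN1, ANGPTL4, DNAJB9, EMILIN2, CRYAB, SFRP1, HBEGF, CXCL8, MMP1, RNA5S9, GADD45A, PF4V1, DUSP5, KIT, CGB1 and LFNG. Their ranges run between 1.67 and 2.78, and the next gene, CAVIN2, had 1.65. In 13 of them siCtrl 1 was the highest array and in 7 the lowest. Without siCtrl 1, 0 of the 20 spanned 2-fold, and their ranges had a median of 0.27 and a highest value of 0.95, in PF4V1. This fall follows largely from their choice by the largest range over the same arrays, so it is no separate check. For LAMB3 and LFNG 1 of 3 probes was detected, and for CGB1 1 of 2.

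Several of those highest on siCtrl 1 encode secreted signals. CXCL8 (interleukin-8), which attracts neutrophils, read 15466, 4443 and 4546 on siCtrl 1, 2 and 3. It was thus high on siCtrl 1 and similar on the other arrays, with a range of 1.90 (3.73-fold), and its other probe had 3.22. CXCL2, a related chemokine, read 2844, 639 and 655 (2.46). The EGF receptor ligand HBEGF read 1633, 595 and 467 (1.97), ANGPTL4, which inhibits lipoprotein lipase, read 4284, 1094 and 1210 (2.16), and SFRP1, an inhibitor of Wnt signals, read 3136, 858 and 914 (2.09). All 5 genes had the same pattern, siCtrl 1 above a close pair.

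The other 8 genes highest on siCtrl 1 were of mixed function. LAMB3, a laminin chain of epithelial basement membrane, read 2428, 654 and 502 (2.44), and CLDN1, a tight junction claudin, read 5977, 1912 and 1230 (2.24). TGM2, which cross-links proteins, read 2744, 663 and 626 (2.35), and MMP1, a collagenase, read 2635, 824 and 1132 (1.89). The chaperone partner DNAJB9 read 1849, 781 and 469 (2.16), and the stress sensor GADD45A read 6293, 2756 and 1714 (1.80). DUSP5, a phosphatase that acts on ERK, read 3836, 1285 and 1136 (1.73). RNA5S9, one of many near-identical 5S ribosomal RNA genes, read 1636, 551 and 546 (1.89).

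The 7 genes lowest on siCtrl 1 were mixed as well. CGB8 and CGB1, near-identical copies of the chorionic gonadotropin beta chain whose probes may share transcripts, read 386, 1965 and 1082 (2.78), and 2499, 7928 and 6752 (1.72). EMILIN2, a matrix glycoprotein, read 1448, 6054 and 5494 (2.15), and CRYAB, a small heat shock protein, read 399, 1333 and 1067 (2.11). KIT, given above, had a range of 1.73 and 1.88 on its other probe. LFNG, which modifies Notch receptors, read 669, 1915 and 1314 (1.67), and PF4V1, a platelet chemokine and near copy of PF4, read 610, 1029 and 1624 (1.79). CGB8 and PF4V1 also differed between siCtrl 2 and siCtrl 3, in opposite directions.

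**Figure D4:**
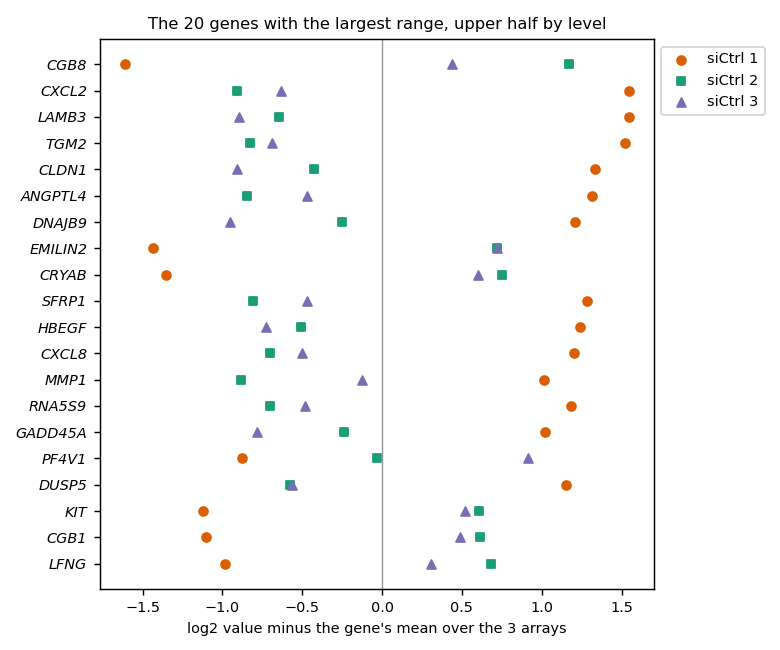
The 20 detected genes with the largest range between arrays, brighter genes only, as the log2 value on each siCtrl array minus the gene's mean over the 3 arrays. The value on siCtrl 1 lies to the right of both other arrays for 13 genes and to the left of both for 7.

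Among the dimmer genes, larger ranges occurred at signals nearer to the background. IL6, the interleukin-6 gene, read 2600, 357 and 262 and had a range of 4.01. IL1A read 1041 on siCtrl 1 and 191 on siCtrl 3 (3.64), and ESM1, an endothelial proteoglycan, had 3.99. ATF3, a stress transcription factor, read 1725, 482 and 379 (2.49), with 1 of its 3 probes detected. Of the probes of ESM1 1 of 2 was detected. IL1A, ESM1 and ATF3 were chosen after their values were seen.

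Promoters are shown for genes at both ends of this order, to set the sequence beside the spread: CXCL8, CXCL2 and KIT from the most variable, IL6, a named marker, and RPL6 and CCNA2 from the steadiest. Each end is shown with and without a motif match: of the 20 most variable genes 13 had a promoter in the table and 7 of these held at least 1 match, and of the 10 steadiest genes 9 had a promoter and 3 held a match. The share of all promoters with at least 1 match was not counted, so these counts show no difference between the ends. They are RefSeq sequences of GRCh38.p14, 250 bases before to 50 after the annotated start, read 5′ to 3′ on the gene's own strand. Capitals mark the letters of a motif a search found. The motifs were TATAAA on the gene's strand (the TATA box), TGANTCA on both strands (labelled AP-1 here) and the NF-kB consensus on both strands. Matches may overlap. N stands for any base, so the pattern labelled AP-1 is a loose one. CXCL8 lies at chr4:73740319-73740618 on the plus strand, with an AP-1 and a TATA match, CXCL2 at chr4:74099146-74099445 on the minus strand and IL6 at chr7:22726950-22727249 on the plus strand, each with an NF-kB match. CXCL8 also holds the letters ggaatttcc, which lie within the CXCL2 match, but the stretch did not meet the consensus searched. That CXCL8 has no NF-kB match is thus no sign that it lacks such a site. RPL6 lies at chr12:112411393-112411692 on the minus strand, with a match of the loose AP-1 pattern. That match reads TGAATCA, whereas the match of CXCL8 reads TGACTCA. KIT at chr4:54657707-54658006 on the plus strand and CCNA2 at chr4:121823834-121824133 on the minus strand hold no match of these motifs.
CXCL8: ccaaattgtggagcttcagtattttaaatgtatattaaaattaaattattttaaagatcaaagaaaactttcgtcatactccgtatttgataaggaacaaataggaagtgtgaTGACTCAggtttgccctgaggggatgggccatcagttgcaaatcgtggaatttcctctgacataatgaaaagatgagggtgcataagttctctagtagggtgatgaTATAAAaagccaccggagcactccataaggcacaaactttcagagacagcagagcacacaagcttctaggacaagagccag
CXCL2: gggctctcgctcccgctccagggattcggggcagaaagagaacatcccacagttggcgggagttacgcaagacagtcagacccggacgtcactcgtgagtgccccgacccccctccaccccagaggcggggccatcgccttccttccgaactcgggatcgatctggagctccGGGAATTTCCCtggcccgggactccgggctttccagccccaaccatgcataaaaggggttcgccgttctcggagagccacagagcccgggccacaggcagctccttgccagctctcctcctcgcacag
IL6: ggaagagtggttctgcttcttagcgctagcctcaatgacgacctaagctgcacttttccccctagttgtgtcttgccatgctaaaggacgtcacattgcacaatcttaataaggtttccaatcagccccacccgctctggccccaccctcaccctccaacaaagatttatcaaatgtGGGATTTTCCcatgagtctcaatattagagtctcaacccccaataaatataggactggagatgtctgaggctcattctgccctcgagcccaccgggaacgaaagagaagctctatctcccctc
KIT: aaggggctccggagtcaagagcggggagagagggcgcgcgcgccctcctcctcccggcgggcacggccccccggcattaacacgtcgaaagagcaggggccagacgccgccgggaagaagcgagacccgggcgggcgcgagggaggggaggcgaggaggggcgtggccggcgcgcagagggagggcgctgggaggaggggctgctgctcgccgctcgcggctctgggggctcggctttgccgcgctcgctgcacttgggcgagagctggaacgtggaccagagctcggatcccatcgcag
RPL6: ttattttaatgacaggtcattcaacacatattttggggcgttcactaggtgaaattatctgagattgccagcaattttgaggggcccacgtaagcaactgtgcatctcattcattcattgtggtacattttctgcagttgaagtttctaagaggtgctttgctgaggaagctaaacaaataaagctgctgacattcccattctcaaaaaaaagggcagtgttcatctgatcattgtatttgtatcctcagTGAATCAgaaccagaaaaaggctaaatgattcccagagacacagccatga
CCNA2: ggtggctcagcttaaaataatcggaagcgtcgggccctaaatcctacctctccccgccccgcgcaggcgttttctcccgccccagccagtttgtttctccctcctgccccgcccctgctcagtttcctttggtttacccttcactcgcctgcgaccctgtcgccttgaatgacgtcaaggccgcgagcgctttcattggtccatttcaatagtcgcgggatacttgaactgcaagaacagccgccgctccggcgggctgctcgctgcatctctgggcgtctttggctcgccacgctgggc

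A promoter was at hand for 175 genes that spanned 2-fold and were highest on siCtrl 1. Of these 12.6% held TATAAA, against 3.61% of 8336 detected genes and 7.71% of all 27305 promoters in the table. TGANTCA stood in 14.3%, against 4.35% and 7.76%, and the NF-kB consensus in 14.3%, against 12.9% and 10.8%. Among 125 genes that spanned 2-fold and were lowest on siCtrl 1 the shares were 8%, 8% and 10.4%. Among 772 genes within 0.1 they were 3.11%, 3.50% and 11.9%. Further motifs were searched as well. Of the 175 genes 10.3% held an E box (CACGTG), against 10.5% of detected genes and 7.43% of all promoters. A C/EBP-ATF composite stood in 1.14%, against 0.516% and 0.923%, and an ER stress element in 0%, against 0.168% and 0.0806%. A match is a description of letters, not a binding site, and these differences in share carry no test.

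Named programmes moved with siCtrl 1 as groups, but the lists share genes and are not independent. ATF3 stands in the ATF4 and immediate early lists and VEGFA in the ATF4 and hypoxia lists. MYC stands in the immediate early and ribosome biogenesis lists. Each list is given by its mean deviation on each array from the gene means, in log2 units, by the median range of its detected genes, set against 0.31 over all genes, and by how many were highest on siCtrl 1, set against 36.5% of all genes. Counts of genes spanning 2-fold, here and in the paragraphs below, stand beside 3.99% of all detected genes. The lists were chosen with earlier results of these data known, so the counts describe and test nothing.

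The ATF4 and unfolded protein response list deviated by 0.63, -0.20 and -0.43 on siCtrl 1, 2 and 3. All 23 detected genes of its 25 were highest on siCtrl 1, 13 of the 23 spanned 2-fold, and the median range was 1.04. The amino acid transporter subunits SLC3A2 and SLC7A5 read 10826, 6931 and 4481, and 9595, 6118 and 4260. ATF4 itself, whose protein is set mainly by translation, read 11632, 11063 and 9459, a range of 0.22. Among its targets, TRIB3 read 3995, 2052 and 1249, DDIT3 (CHOP) read 2486, 1135 and 866 and ASNS, which makes asparagine, read 2804, 1565 and 1184. On these 3 genes, chosen after their values were seen, siCtrl 3 was the lowest array and siCtrl 2 lay between.

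The NF-kB and cytokine list deviated by 0.76, -0.39 and -0.37. Of its 28 genes 13 were detected, 5 of the 13 spanned 2-fold, 10 were highest on siCtrl 1, and the median range was 0.83. NFKBIA, the inhibitor that NF-kB itself induces, read 8174, 6026 and 5135, NFKB1, a subunit, read 6589, 5675 and 5282, and CXCL1 read 6083, 4682 and 4349. These ranges, 0.56, 0.25 and 0.42, were well under that of CXCL8. CXCL3, CXCL5 and CCL2 were detected on 0 of 3 arrays.

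Immediate early genes, which growth factors and stress switch on within minutes, deviated by 0.51, -0.20 and -0.31. Of 19 detected genes 9 spanned 2-fold and 13 were highest on siCtrl 1, with a median range of 0.98. DUSP1, a phosphatase of MAP kinases, read 8770, 5686 and 4131, and IER3 read 9496, 5814 and 5869. JUND and KLF6 differed little, with ranges of 0.25 and 0.18. FOS was detected on 1 of 3 arrays.

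Metallothioneins, which bind zinc and copper, deviated by 0.55, -0.23 and -0.32, and all 5 detected genes were highest on siCtrl 1, with a median range of 0.71. MT2A read 18697, 16409 and 14354, MT1X read 8499, 4315 and 3494 and MT1G read 1235, 523 and 449. The members are close copies and their probes may share transcripts. Hypoxia and glycolysis genes deviated by 0.33, -0.17 and -0.16, with 17 of 24 highest on siCtrl 1, 6 of 24 spanning 2-fold and a median range of 0.40. Its brightest enzymes, LDHA and ENO1, had ranges of 0.05 and 0.02, while VEGFA, an angiogenic factor, read 1204, 449 and 401 and the hexokinase HK2 read 1301, 468 and 526. VEGFA and HK2 were chosen after their values were seen. Ribosome biogenesis and MYC target genes deviated by 0.22, -0.03 and -0.19, with 21 of 23 highest on siCtrl 1 and a median range of 0.38, and MYC, given above, was among them.

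Other lists ran the opposite way, set against 43.1% of all genes that were lowest on siCtrl 1. Cholesterol synthesis genes deviated by -0.22, 0.16 and 0.07, with 15 of 18 lowest on siCtrl 1 and a median range of 0.53. Among them ACAT2 read 2706, 4729 and 4254 and SQLE, which oxidises squalene, read 2803, 3853 and 3352. Mitosis genes deviated by -0.18, 0.10 and 0.08, with 27 of 33 lowest on siCtrl 1 and a median range of 0.33, and 0 of them spanned 2-fold. The summed signal of the 22 T and NK cell genes (2 detected) lay between 3362 and 3469.5 over the 3 arrays. That of the 17 endothelial genes (1 detected) lay between 2451 and 2632. Most genes of both lists were undetected, with list median signals of 146 and 144, so these sums are mostly background and could hardly move. The 2 detected T and NK cell genes deviated by -0.22, -0.12 and 0.34, and the 1 detected endothelial gene by 0.16, -0.05 and -0.11. The defining genes CD3D, PTPRC, PECAM1 and CDH5 were undetected on every array. Further cell type lists are given by their detected genes. The 3 detected of 13 pericyte and smooth muscle genes deviated by -0.43, 0.23 and 0.20 and were lowest on siCtrl 1 in 3 of 3, with a summed list signal between 8131 and 11703. The 7 detected of 17 fibroblast genes deviated by -0.26, 0.10 and 0.16, with 5 lowest on siCtrl 1, 3 spanning 2-fold and a sum between 14970 and 15873. The 4 detected of 12 mesothelium genes deviated by 0.55, -0.20 and -0.35, with 2 spanning 2-fold and a sum between 2404 and 3292. The part of these markers in the shift of siCtrl 1 was not tested.

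**Figure D5:**
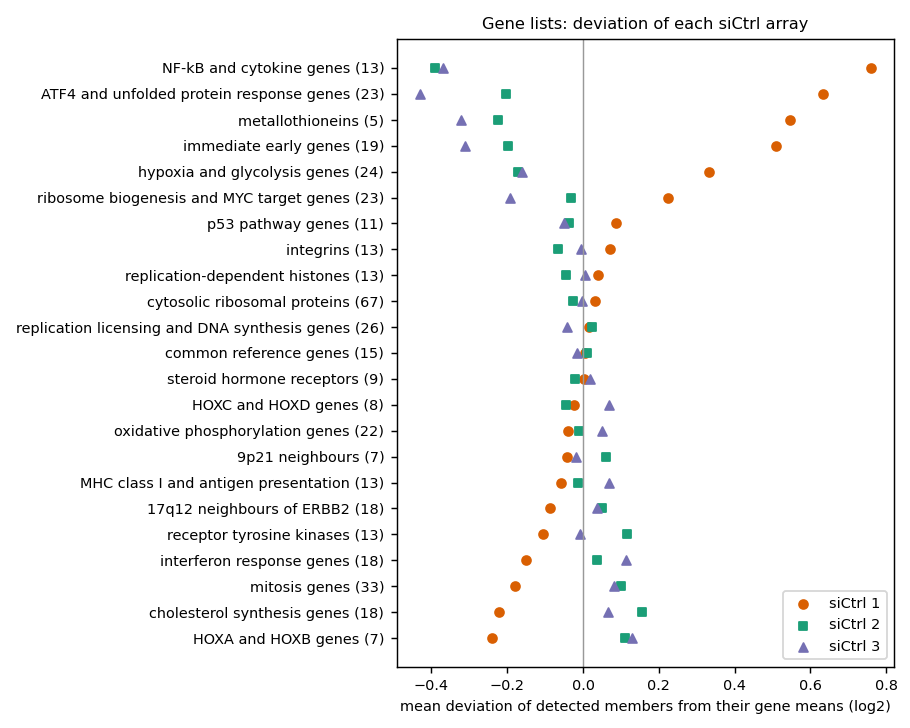
Mean deviation of the detected genes of each list on siCtrl 1, 2 and 3 from their gene means, in log2 units, with the number of genes in brackets. The NF-kB, ATF4, metallothionein, immediate early and hypoxia lists lie between 0.33 and 0.76 on siCtrl 1, the cholesterol and mitosis lists lie at -0.22 and -0.18, and the reference genes lie at 0.01.

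Without siCtrl 1, 0 detected genes of the ATF4, NF-kB, immediate early, hypoxia, ribosome biogenesis and metallothionein lists spanned 2-fold. Only 15 of all 10439 genes measured this way did, so 0 is likely for any lists of this size and says nothing particular about these. The median range between siCtrl 2 and siCtrl 3 was 0.23 for the ATF4 list and 0.28 for the NF-kB list, 0.32 for immediate early genes, 0.15 for metallothioneins, 0.12 for hypoxia, 0.17 for ribosome biogenesis, 0.16 for cholesterol synthesis and 0.07 for mitosis genes, set against 0.14 over all genes. Of the 15 genes that did span 2-fold without siCtrl 1, FCF1 had the largest range (1.44), followed by TNFAIP8L1 (1.42) and G0S2 (1.33). FCF1, a factor of ribosome assembly, had a mean signal of 357 on these 2 arrays. These 3 genes were chosen after their values were seen.

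At the steady end, XPR1, the phosphate exporter, had a range of 0.003, with log2 values of 11.18 on all 3 arrays. The next 9 were ADAM15, TACC1, FAU, DYNLT3, PIGP, RPL6, RAB8B, CCNA2 and MEX3D, all within 0.011. CCNA2, cyclin A2, which drives S phase and mitosis, read 4941, 5019 and 4473, and RPL6 read 15015, 15187 and 14983. Reference genes in common use had a median range of 0.13, ACTB 0.03 and GAPDH 0.17. Oxidative phosphorylation genes had a median of 0.16 and ribosomal protein genes 0.13, and 0 genes of either list spanned 2-fold. These 3 lists are bright, with median signals among the detected of 9148, 6865 and 14299. In the brightest decile of all detected genes the median range was 0.19 and 1.37% spanned 2-fold. The 100 brightest genes had a median range of 0.08. Small ranges are thus not shown to be particular to these lists. Without siCtrl 1 the 10 steadiest genes were all within 0.0113. That follows almost wholly from their choice by the smallest range over the same arrays, so it is no separate check. The medians of the reference, oxidative phosphorylation and ribosomal protein lists without siCtrl 1 were 0.07, 0.11 and 0.07.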

How the data were processed

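RNA of SKOV-3 cells with scramble siRNA was read on 3 Illumina bead arrays. Per the file headers, the deposited intensity is an average bead signal, and its lowest values on siCtrl 1, 2 and 3 (105, 116 and 107) show no background subtraction. The deposited detection p-value has 770 steps on each array. The authors' processed table, used in 1 alternative, is log2 judged by its values (median 5.99). It shows no centring by gene, and its normalization method was not stated. The submitters' processing notes name GenomeStudio and lumi, without a version.

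Ranges come from limma 3.58.1 in R 4.3.3: neqc (normexp with detection p-values, offset 16, quantile) on the 3 arrays, log2 scale, one probe per gene, the brightest. Counts and figures used Python 3.11.15, pandas 2.3.3, numpy 2.4.6 and matplotlib 3.10.9. Detection needs p under 0.01. Ranges were also taken on simulated arrays, which held less spread: a median of 0.08 among unchanged brighter probes. In the data here, deciles 6 to 10 of detected genes by signal had median ranges between 0.19 and 0.32. Of 50 probes shifted 2-fold on 1 array, 37 reached a range of at least 1, and of 50 shifted 3-fold, 50 did. A shift of 1 array across many genes was not simulated, so recovery at the spread of these data is not known. Probes with several symbols (8) or none (17196) were left out of named genes. Of the rest, 30071 matched a gene identifier in RefSeq's gene table, with 0 symbols changed. Promoters were matched by symbol, for 13 of the 20 most variable genes. The number of arrays limits the precision.

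Named are the 25 brightest genes, the 20 with the largest and 10 with the smallest range among the brighter genes (mean log2 above the median of detected genes), per list up to 4 brightest detected and 4 undetected genes first in order, and a fixed set of markers. The arrays, lists and rules were chosen with earlier results of these data known. No groups were compared, so no test was run. Alternatives varied the detection threshold, the probe rule, the background correction, the scaling and the arrays used.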

Additional observations from a re-analysis of the deposited data

Results flagged for a closer look

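Probes without a gene symbol, or with several, enter none of the results above. Of 17204 such probes, 3077 passed the threshold of 0.01 on each of the 3 arrays (17.9%), and the brightest had a mean signal of 19643. These probes have no gene name here, and no control sample without RNA sets a floor other than the negative control beads behind the detection p-value. Groups of 3 arrays were not checked for single outlying values.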

How the results depend on the processing

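The count of detected genes (10198) was between 9154 and 10988 at detection thresholds of 0.002 and 0.05, 10194 with the brightest probe alone, 7961 with every probe required, and between 10288 and 10440 with 1 array left out. Genes spanning 2-fold (407) were 651 with no filter on dim probes and 170 with no background correction, and between 15 and 325 with 1 array left out, the lowest without siCtrl 1. Genes within 0.1 (919) were 2269 with no filter and 1562 with no background correction, and between 2489 and 4045 with 1 array left out, where fewer arrays narrow the range by construction. For the settings without a background correction and without the filter, the cause was not tested. With the authors' values the counts were 290 and 1056, and with neqc on all 6 arrays 407 and 912. Of the 919 genes, 332 stayed within 0.1 under median scaling, which gave 729. Counts of detected genes per list differed by more than 1.5 times in 38 of 469 cases, 19 of them with every probe required. Of the 20 most variable genes, 19 moved without siCtrl 1, and PF4V1 without siCtrl 3. A block for the slide could not be fitted, as no slide is labelled. No paired analysis was possible because no groups are compared and no result comes from a test. Low signal limits detection: the dimmest detected genes lie near 180.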
